A study of Drosophila melanogaster with 6 samples.

Results

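Peptidoglycan recognition proteins (PGRPs) are the fly's sensors and scavengers of the bacterial cell wall, and 10 of their genes were examined among the 17411 genes of each count table. They were chosen by symbol: 5 amidase genes (PGRP-SC1a, PGRP-SC1b, PGRP-SC2, PGRP-LB and PGRP-SB1) and 5 genes of the receptor class (PGRP-LC, PGRP-LE, PGRP-LF, PGRP-SA and PGRP-SD). All 10 were found in the tables and all 10 passed the filter on low counts.

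Amidase PGRPs cut the stem peptide from the sugar backbone of peptidoglycan and so destroy the signal that the receptors read. PGRP-LC at the cell membrane and PGRP-LE inside the cell bind peptidoglycan of the type found in Gram-negative bacteria and start the Imd pathway, which ends in the NF-kappa-B factor Relish and antimicrobial peptide genes. PGRP-SA circulates in the blood and starts the Toll pathway. In the midgut, where gut bacteria shed peptidoglycan continuously, amidases of the family are known to hold Imd signalling down.

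PolyA-selected RNA from Drosophila melanogaster was sequenced in 6 libraries. Of these, 3 carried the genotype Mex-Gal4>9G8RNAi, called 9G8-RNAi here, and 3 the genotype Mex-Gal4>GFPdsRNA, called control, with replicates lettered A, B and D in each group, whose values are given in that order. Mex-Gal4, present in all 6, acts in the midgut's absorptive cells, the enterocytes, so that in RNA of mixed cells the other cells carry no knockdown. The knockdown target 9G8 is a splicing factor of the SR type, encoded by x16. The sources used here do not give the flies' sex or age, or whether the libraries of a group came from separate cohorts, so p-values measure only the spread between these libraries. The labels name the controls' tissue as fat bodies and, elsewhere, a yolk driver, which disagrees with the titles.

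Gut genes were abundant in all 6 libraries: mex1, the gene behind the driver's name, measured 128 to 319 CPM (reads of a gene relative to the size of its library, scaled by TMM), and the trypsin alphaTry at least 14992 CPM. The 10 fat body markers summed to 118 to 593 CPM in 9G8-RNAi and 107 to 375 CPM in control libraries. Among them the storage protein gene Lsp2 had at most 0.119 CPM, while the yolk protein gene Yp3 measured 29.7 to 258 CPM and apolpp, of the lipoprotein particle, 6.61 to 52.2 CPM. The 6 blood cell markers summed to 1.07 to 14.6 CPM, with He at 0 counts in every library and Hml at 0.0823 to 2.23 CPM. Control replicate A stood apart, with the 7 muscle markers summing to 3174 CPM there against at most 343 CPM elsewhere and with the lowest digestive sum, 37938 CPM against at least 97616 CPM. That sum rests on abundant proteases, of which alphaTry, Jon99Cii and Jon65Aiv were lowest in control replicate A. Other genes of the list did not follow: mex1 (272 CPM), betaTry and Npc2f were not lowest there, and Mal-A1 was highest (133 CPM). The x16 transcript itself measured 6.37, 11.5 and 6.59 CPM in 9G8-RNAi and 8.28, 7.14 and 20.0 CPM in control libraries. The groups overlapped, with control replicate D highest. In CPM of total counts control replicate A was highest (13.9 CPM), ahead of control replicate D (12.7 CPM). Control replicate B (7.92 CPM) lay below 9G8-RNAi replicate B (9.76 CPM), so the groups overlapped there too. The log2 fold change of x16 was -0.53 ± 0.46 (SE, edgeR adjusted p 0.918), so a fall of the target was not detectable. Total counts ran from 26216430 to 66562756, and the 10 PGRP genes together took 0.0860% to 0.204% of them.

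Taken as sums, the amidases were far more abundant than the receptor class in each library, although the amidase PGRP-SB1 was scarce. Levels between genes are given as RPKM, which is CPM scaled by TMM per kilobase of counted exon. The 5 amidases summed to 1697, 2021 and 1129 RPKM in 9G8-RNAi and to 574, 2344 and 2059 RPKM in control libraries. For the receptor class the sums were 20.0, 19.3 and 19.2 RPKM in 9G8-RNAi and 27.8, 18.1 and 18.0 RPKM in control libraries. The amidase sum was thus 20.7 to 129 times the receptor sum, and neither sum separated the groups. Control replicate A held the lowest amidase sum and the highest receptor sum of the 6, and outside it the ratio ran from 58.7 to 129. Most of the amidase level was PGRP-SC2, with 64.5% to 84.9% of the amidase sum. With PGRP-SC2 set aside the ratio was 3.57 in control replicate A and 9.94 to 40.7 elsewhere.

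**Figure D1:**
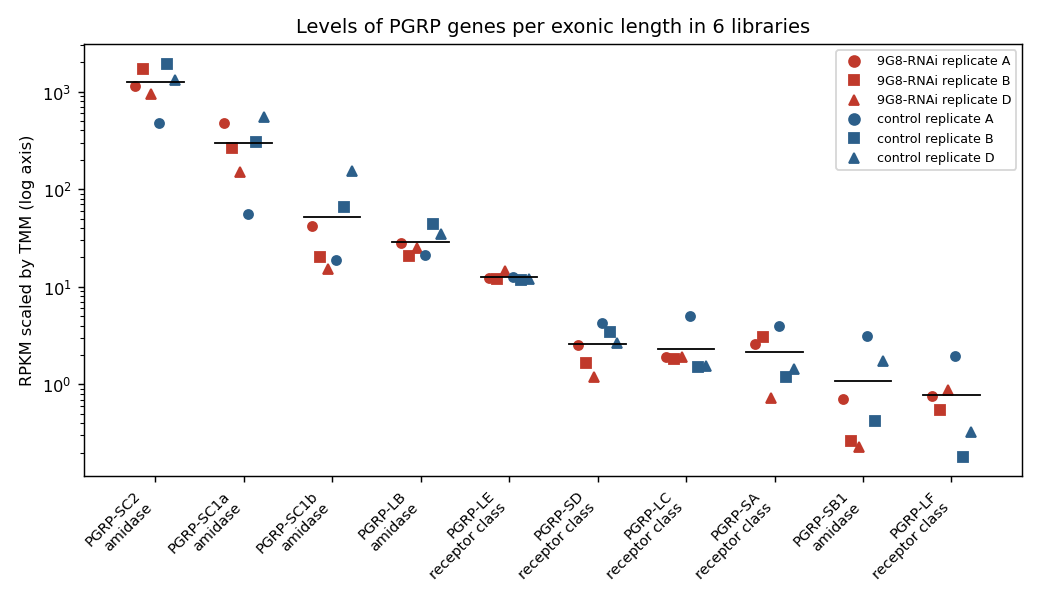
Level of each PGRP gene in each library (points; vertical log axis, RPKM scaled by TMM; black line, mean of 6 libraries), with genes ordered by mean. PGRP-SC2 lies highest at a mean of 1257 RPKM and PGRP-LF lowest at 0.773 RPKM, and control replicate A (blue circle) is at the bottom for PGRP-SC2 and PGRP-SC1a and at the top for PGRP-LC, PGRP-SD, PGRP-SA, PGRP-SB1 and PGRP-LF.

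By mean level per length over 6 libraries the order was PGRP-SC2 (1257 ± 528 RPKM, SD), PGRP-SC1a (298 ± 186), PGRP-SC1b (52.1 ± 52.4), PGRP-LB (28.9 ± 8.96), PGRP-LE (12.5 ± 1.02), PGRP-SD (2.62 ± 1.11), PGRP-LC (2.29 ± 1.35), PGRP-SA (2.16 ± 1.24), PGRP-SB1 (1.08 ± 1.15) and PGRP-LF (0.773 ± 0.629). PGRP-SC2 exceeded PGRP-SC1a, and PGRP-SC1a exceeded PGRP-SC1b, in 6 of 6 libraries, although the ranges over libraries overlapped. Part of the gap between PGRP-SC1a and PGRP-SC1b comes from their counted lengths, 588 and 1649 bases. Per length PGRP-SC1a was 3.00 to 13.0 times PGRP-SC1b, and in counts 1.07 to 4.64 times. PGRP-LB exceeded PGRP-LE in 6 of 6 libraries by 1.68 to 3.72 times, and PGRP-LE exceeded PGRP-SD in 6 of 6 by 3.00 to 12.1 times, both with ranges that did not overlap. Neighbours in the order whose places changed between libraries were PGRP-SC1b and PGRP-LB (3 of 6 libraries each way), PGRP-SD and PGRP-LC (3 of 6), PGRP-LC and PGRP-SA (4 of 6), PGRP-SA and PGRP-SB1 (5 of 6) and PGRP-SB1 and PGRP-LF (3 of 6). The order within these pairs thus varied between libraries, and differences between genes were not tested.

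The question of whether PGRP genes differ when 9G8 is targeted was asked in a fit over all 9285 genes tested. None of the 10 members passed an edgeR adjusted p of 0.05, against 0.118% of all genes tested, and 0 passed with DESeq2 or limma-voom. At an unadjusted p under 0.05 there were 2 members, PGRP-SB1 and PGRP-SD, both lower in 9G8-RNAi, where 4.53% of all genes reached that level. Log2 fold changes were below 0 for 8 of the 10, as for 55.7% of all genes, with a median of -0.31 against -0.065 over all genes. By class the median was -0.44 for the 5 amidases and -0.18 for the 5 receptor genes. RNA from mixed cells cannot tell fewer cells of a type from less RNA per cell. The disagreement over the controls' tissue bears on every comparison between groups, and its part in these values was not tested.

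**Figure D2:**
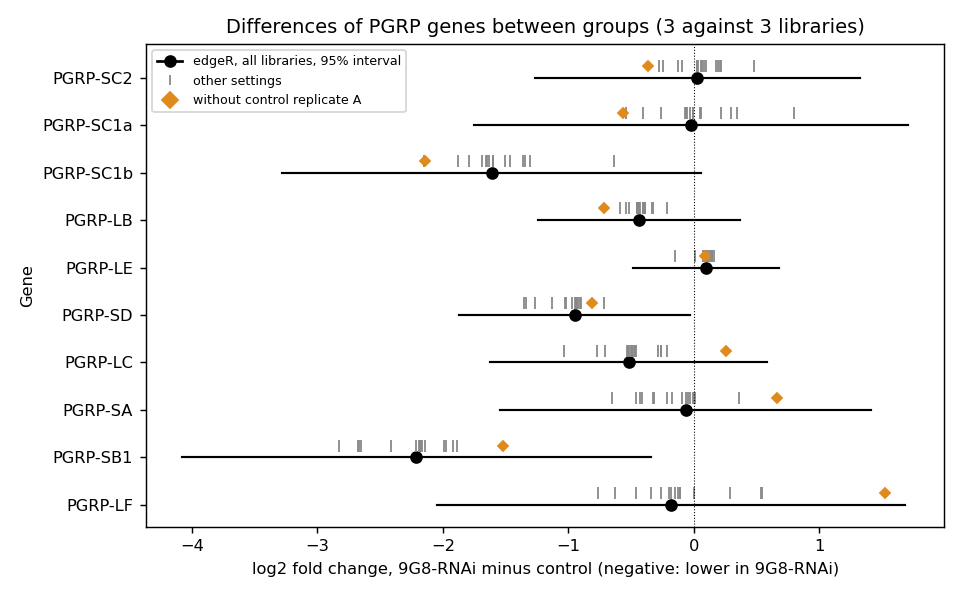
Log2 fold change of each PGRP gene, 9G8-RNAi minus control (black point, edgeR with all 6 libraries; bar, 95% interval), with the other settings as grey ticks and the value without control replicate A as an orange diamond. Intervals cover 0 for 8 of the 10 genes, and PGRP-LF moves from -0.18 to 1.53 without control replicate A.

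PGRP-SC1a, PGRP-SC1b and PGRP-SC2 encode secreted amidases of the gut and lie close together on chromosome arm 2R (BDGP6). PGRP-SC1a (FBgn0043576) spans 8709733 to 8710320, PGRP-SC1b (FBgn0033327) 8713446 to 8715094 and PGRP-SC2 (FBgn0043575) 8716950 to 8717695, all on the plus strand and each with 1 block of counted exon. PGRP-SC1a and PGRP-SC1b are known as near-identical copies, so reads may be shared between them or lost, and their separate counts are uncertain.

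PGRP-SC2 measured 859.8, 1280.4 and 699.9 CPM in 9G8-RNAi libraries, while the controls had 354, 1440.5 and 990.7 CPM. The lowest and the highest library were both controls, A and B, and the groups overlapped. The fitted ratio was 1.02, with a 95% interval from 0.416 to 2.5 and an edgeR adjusted p of 0.997. Without control replicate A the log2 fold change was -0.37, against 0.03 with all libraries.

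PGRP-SC1a stood at 279, 155 and 88.6 CPM in 9G8-RNAi and 33.0, 179 and 319 CPM in control libraries. Again control replicate A was lowest, control replicate D was highest, and the groups overlapped, with a fitted ratio of 0.985 (95% interval 0.297 to 3.26, edgeR adjusted p 0.999). In CPM of total counts 9G8-RNAi replicate A was highest (238 CPM, against 203 CPM in control replicate D), and control replicate A was still lowest (55.5 CPM). Leaving out control replicate A gave a log2 fold change of -0.57 and leaving out control replicate D 0.80, against -0.02 with all 6.

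PGRP-SC1b had 68.5, 33.4 and 25.1 CPM in 9G8-RNAi libraries and 30.8, 107 and 250.4 CPM in control libraries. Here 9G8-RNAi replicate D was lowest, and control replicate A lay among the 9G8-RNAi values. The fitted ratio was 0.327 with a 95% interval from 0.103 to 1.04 and an edgeR adjusted p of 0.918, so the fall did not pass the test. It was -1.61 on the log2 scale with all libraries, -2.15 (adjusted p 0.391) without control replicate A and -0.63 (adjusted p 0.675) without control replicate D. Counted as 1 gene, PGRP-SC1a and PGRP-SC1b together differed by -0.50 ± 0.74 (SE) on the log2 scale (edgeR adjusted p 0.921).

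Within each library, the copy with more reads was PGRP-SC1a, but by an amount that differed between groups. PGRP-SC1a had 4.07, 4.64 and 3.53 times the counts of PGRP-SC1b in 9G8-RNAi libraries and 1.07, 1.67 and 1.27 times in controls. The means were 4.08 ± 0.55 and 1.34 ± 0.30 (SD, n = 3), and the groups did not overlap. A ratio within a library does not depend on scaling or depth, and control replicate A lies with the other controls here. This pair was picked out after its values were seen and was not tested. Of the 45 pairs of members, 4 pairs, or 8.89%, had ratios that did not overlap between groups. For levels of single genes, a different measure, 8.59% of all genes did not overlap. A share over all pairs of genes was not computed. PGRP-SC1a over PGRP-SC1b, PGRP-LE over PGRP-SD and PGRP-LF over PGRP-SB1 were higher in 9G8-RNAi, and PGRP-SB1 over PGRP-SA was lower. The sources used here do not say how reads that match both copies were assigned, and its part in the ratio was not tested.

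**Figure D3:**
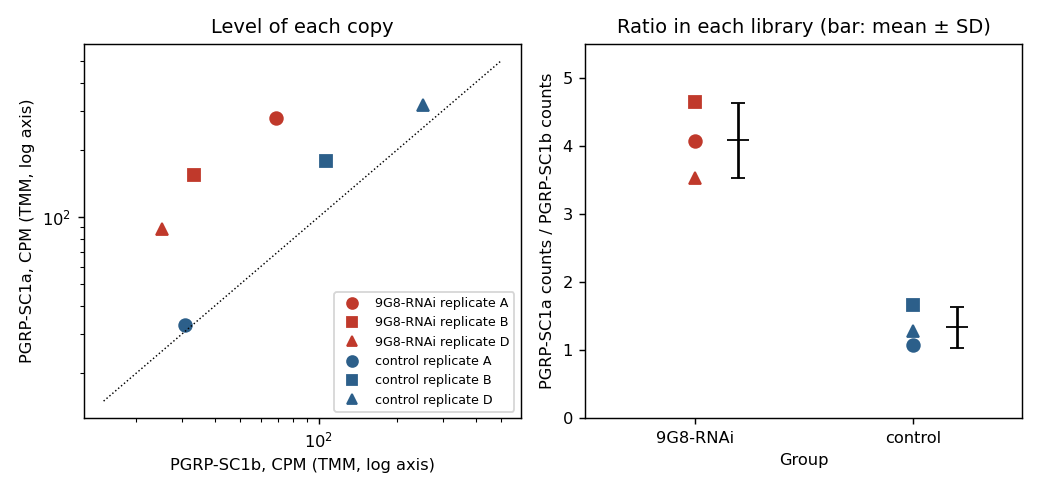
Left, PGRP-SC1a against PGRP-SC1b in each library (CPM scaled by TMM, both axes log, dotted line at equal levels); right, the ratio of their counts by group (points, libraries; bar, mean ± SD, n = 3). The 9G8-RNAi libraries lie at ratios of 3.53 to 4.64 and the control libraries at 1.07 to 1.67.

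PGRP-LB (FBgn0037906, 3R from 11452849 to 11460552, minus strand) encodes an amidase that is itself a target of Relish and so forms a feedback brake on Imd. It measured 49.5, 36.8 and 44.5 CPM in 9G8-RNAi and 37.6, 77.8 and 62.0 CPM in control libraries. Control replicates B and D were the highest of the 6, while control replicate A lay within the 9G8-RNAi range. The fitted ratio was 0.737 (95% interval 0.422 to 1.29, edgeR adjusted p 0.918), and the log2 fold change was -0.44, or -0.72 (adjusted p 0.769) without control replicate A. Per length, PGRP-LB alone amounted to 0.764 to 2.42 times the summed receptor class.

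PGRP-SB1 (FBgn0043578, 3L from 16727299 to 16727989, minus strand) encodes an amidase made in response to infection. It was scarce: 11, 6 and 11 reads in 9G8-RNAi libraries and 86, 14 and 22 in controls. In CPM these were 0.438, 0.165 and 0.142 against 1.95, 0.266 and 1.09, where 3 counts correspond to 0.0451 to 0.114 CPM of total counts. Control replicate A was highest, control replicate B lay below 9G8-RNAi replicate A, and values of both groups overlapped. On the log2 scale the difference was -2.21 ± 0.81 (SE; unadjusted p 0.0257, edgeR adjusted p 0.918). Without control replicate A it was -1.53, with an adjusted p of 0.823. Next to it on 3L, PGRP-SB2, a predicted amidase outside the 10 members, had 5 reads in all 6 libraries together and was not tested.

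Among receptors PGRP-LE was the most abundant and the steadiest. PGRP-LE (FBgn0030695, X from 15801153 to 15803880, minus strand) encodes the intracellular sensor of peptidoglycan fragments in the midgut. It measured 25.3, 25.1 and 30.1 CPM in 9G8-RNAi and 26.2, 24.4 and 24.8 CPM in control libraries. The highest library exceeded the lowest by 1.23 times, the least of the 10 members, and control replicate A did not stand out. This steadiness depends on the scaling: in CPM of total counts the values ran from 15.7 to 44.0, a range of 2.80 times, with control replicate A highest. The fitted ratio between groups was 1.07, with a 95% interval from 0.714 to 1.60 and an edgeR adjusted p of 0.953. It took 45.5% of the summed receptor level in control replicate A and 61.0% to 75.5% elsewhere.

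PGRP-LC (FBgn0035976, 3L from 9338810 to 9348336, plus strand) encodes the membrane receptor of the Imd pathway and has 10 annotated transcripts, which gene counts do not separate. Its levels were 6.88, 6.64 and 6.94 CPM in 9G8-RNAi and 18.2, 5.51 and 5.62 CPM in control libraries. Control replicate A was far above the other 5, and the remaining controls lay below all 9G8-RNAi libraries. With all libraries the log2 fold change was -0.52 ± 0.48 (SE, edgeR adjusted p 0.918), and without control replicate A it was 0.26 ± 0.28 (adjusted p 0.91), so its sign rested on that library. Per length, PGRP-LC was 0.129 to 0.156 times PGRP-LE in 5 libraries and 0.398 times in control replicate A.

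PGRP-LF (FBgn0035977, 3L from 9349609 to 9351489, plus strand) lies 1272 bases beyond PGRP-LC and encodes a membrane protein that inhibits PGRP-LC signalling. Its values were 1.03, 0.741 and 1.18 CPM in 9G8-RNAi and 2.63, 0.247 and 0.444 CPM in control libraries. As for PGRP-LC, control replicate A was highest and the other controls were below all 9G8-RNAi libraries. The log2 fold change was -0.18 ± 0.81 (SE, edgeR adjusted p 0.97), and 1.53 ± 0.54 (unadjusted p 0.022, adjusted p 0.622) without control replicate A. Of its 1355 counted bases, 602 overlap exons of UGP on the opposite strand, so its counts are uncertain.

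PGRP-LA (FBgn0035975), which lies 473 bases before PGRP-LC and is outside the 10 members, encodes a family member without amidase activity that acts on Imd signalling in barrier epithelia. It was at 21.3, 22.3 and 17.0 CPM in 9G8-RNAi and 27.4, 13.4 and 15.5 CPM in control libraries, again with control replicate A highest and the other controls lowest. Its log2 fold change was 0.10 ± 0.34 (SE, edgeR adjusted p 0.962). Per length PGRP-LA had a mean of 9.29 RPKM over the 6 libraries, and in control replicate A it exceeded PGRP-LE (13.1 against 12.6 RPKM). PGRP-LA is not part of the receptor sums, ratios and shares given above.

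The secreted PGRP-SA (FBgn0030310, X from 11561643 to 11562779, plus strand), the receptor upstream of Toll, measured 2.63, 3.13 and 0.734 CPM in 9G8-RNAi and 4.02, 1.22 and 1.48 CPM in control libraries. Control replicate A was highest and 9G8-RNAi replicate D lowest, so both groups spread widely and overlapped. On the log2 scale they differed by -0.07 ± 0.64 (SE, edgeR adjusted p 0.989), and 0.66 (adjusted p 0.902) without control replicate A.

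PGRP-SD (FBgn0035806, 3L from 7651180 to 7651900, plus strand) encodes a secreted protein that aids recognition of bacteria by other PGRPs. It had 1.83, 1.21 and 0.862 CPM in 9G8-RNAi and 3.04, 2.49 and 1.92 CPM in control libraries. All 9G8-RNAi libraries lay below all controls, by a small margin between 9G8-RNAi replicate A and control replicate D, and in CPM of total counts both groups overlapped. PGRP-SD was 1 of 10 members without overlap, where 8.59% of all genes tested had none. On the log2 scale the difference was -0.95 ± 0.40 (SE; unadjusted p 0.0439, edgeR adjusted p 0.918), and -0.82 (adjusted p 0.811) without control replicate A. These levels rest on 39 to 134 reads per library.

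**Figure D4:**
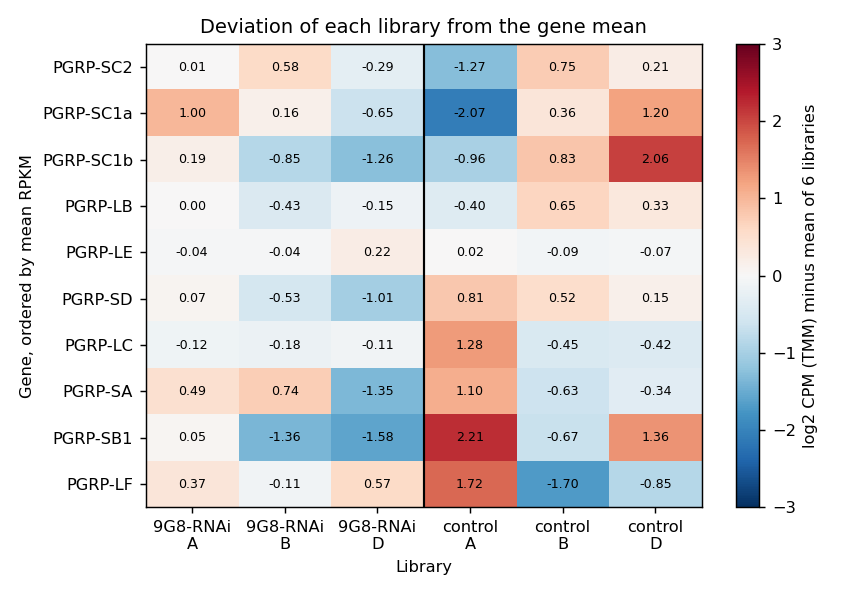
Log2 CPM (TMM) of each PGRP gene in each library minus the gene's mean over 6 libraries, with red above and blue below the mean and a black line between groups. Control replicate A has the highest value of PGRP-SD, PGRP-LC, PGRP-SA, PGRP-SB1 and PGRP-LF and the lowest of PGRP-SC2 (-1.27) and PGRP-SC1a (-2.07).

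Control replicate A was the highest library for 5 of the 10 members (PGRP-LC, PGRP-LF, PGRP-SD, PGRP-SB1 and PGRP-SA) and the lowest for 2 (PGRP-SC1a and PGRP-SC2). In CPM of total counts it was highest for 6 and lowest for 2. The share of all genes highest or lowest in that library was not computed. In the same library all 7 muscle markers were at their highest, with Mhc, the muscle myosin heavy chain, at 843 CPM against at most 47.2 CPM elsewhere. Of the 10 fat body markers 2, fon and Tep4, were highest there, with Lsp2 at 0.0227 CPM and a list sum of 375 CPM within the range of the other libraries (107 to 593 CPM). The 6 blood cell markers summed to 14.6 CPM there against at most 5.53 CPM elsewhere, mostly through Pxn at 12.6 CPM, while 3 of the 6 were highest there and Hml, a defining marker, was not. The part of these cell types in the PGRP values was not tested.

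Genes whose levels over the 6 libraries followed a member most closely were sought by the root mean square distance between log2 CPM profiles centred on their means, among genes with a mean of at least 5 CPM. PGRP-SC1a, with a spread of 1.10 about its own mean, lay nearest to the digestive proteases Jon65Ai (distance 0.178) and Jon25Biii (0.189) and to levy, of the respiratory chain (0.325). For PGRP-SC1b the nearest were CG7296 (0.374), Cht9 (0.465) and lectin-37Db (0.532). PGRP-SC2 lay nearest to boca, CG31269 and HDAC6, at 0.205 to 0.240. The neighbours of PGRP-LB were CG4630, Med and caz (0.0644 to 0.0935), and those of PGRP-LC were nuf, tmod and CG10638 (0.0730 to 0.144). PGRP-LE, with a spread of only 0.0999, had Rab6, IKKepsilon and eIF2Bgamma within 0.0427. For the scarce members the nearest were CG13659, CG33521 and CG32107 for PGRP-LF, Swim, CG15673 and ScsbetaA for PGRP-SD, Gel, CG12560 and Agpat2 for PGRP-SB1, and vir-1, CG15210 and CG14495 for PGRP-SA, at 0.146 to 0.322. Their own spreads ran from 0.464 (PGRP-SD) to 0.709 (PGRP-SB1). The 0.5 CPM added before the logarithm narrows the profiles of genes this scarce, so their neighbours match a flattened profile. With 6 libraries and at least 5488 candidates, close profiles are found for most genes, and these distances are a description.

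Downstream of the receptors, 0 of 13 tested Imd pathway genes passed the edgeR test over all genes in either direction, 0 of 13 reached an unadjusted p under 0.05, and their median log2 fold change was -0.10. Relish (Rel) measured 47.9, 22.8 and 30.5 CPM in 9G8-RNAi and 44.1, 32.5 and 27.5 CPM in control libraries, and the adaptor imd 6.80, 5.10 and 6.31 against 7.08, 5.51 and 5.38 CPM. The most abundant members of the list were the ubiquitin-conjugating enzymes eff, Uev1A and ben and the nuclear factor akirin. eff had 198 ± 11.2 against 180 ± 39.6 CPM (SD, n = 3). All of these overlapped between groups.

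Of 7 genes known to restrain Imd signalling, 0 passed, and the median was -0.07. pirk, an inhibitor that is a Relish target and acts on PGRP-LC, measured 22.4, 13.1 and 12.9 CPM in 9G8-RNAi and 24.4, 8.11 and 10.6 CPM in control libraries. The transcription factors cad and nub, which limit antimicrobial peptide genes in the gut, had log2 fold changes of 0.40 ± 0.30 and 0.25 ± 0.31 (SE). Among 15 Toll pathway genes 0 passed, with a median of -0.40, and 13 of the 15 were highest in control replicate A. Dif, an NF-kappa-B factor of that pathway, measured 35.2 CPM there and at most 7.32 CPM elsewhere. The more abundant Myd88 (49.35 against at most 41.2 CPM) and cact (26.6 against at most 21.4 CPM) differed less. dl was at 20.9 CPM in control replicate A and 22.5 CPM in control replicate B. The share of all genes highest in control replicate A was not computed.

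Antimicrobial peptide genes include readouts of both pathways, and 8 of 18 listed passed the filter on low counts. Of these 8, 0 passed the test and the median was -1.77. At an unadjusted p under 0.05 there were 4, where 4.53% of all genes reached that level, with AttD, Drsl3 and Mtk lower and Drsl2 higher in 9G8-RNAi. AttD and Drsl2 had no overlap between groups, in opposite directions. AttD, an attacin, measured 0.557, 0.357 and 0.245 CPM in 9G8-RNAi and 2.84, 3.38 and 2.57 CPM in control libraries, with an edgeR adjusted p of 0.0696. Drsl2, a drosomycin-like peptide gene, measured 8.24, 6.42 and 6.02 CPM in 9G8-RNAi and 3.54, 1.80 and 1.63 CPM in control libraries, with a difference of 1.56 ± 0.37 (SE) on the log2 scale and an edgeR adjusted p of 0.323. DptB, a diptericin and a classic Imd target, had 1.11, 1.15 and 0.180 against 1.18, 0.513 and 13.7 CPM, so its high value was in control replicate D. AttC, an attacin below the low-count filter, stood at 26.6 CPM in control replicate A and at most 2.42 CPM elsewhere. Drs, drosomycin, measured 11.4, 40.3 and 0.476 CPM in 9G8-RNAi and 0.658, 0.304 and 5.92 CPM in control libraries, so libraries of both groups held low values. Of 4 genes of gut oxidant defence 2 were tested and 0 passed. Irc, a catalase of the gut lumen, stood at 52.7 CPM in control replicate A and at most 3.24 CPM elsewhere.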

How the data were processed

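Each library has 1 deposited file of raw read counts (whole numbers, not normalized), with the summed exon length of each gene per the file headers. The submitters' processing notes name the build BDGP6, Subread 1.5.2 with featureCounts, STAR 2.5.2b and Trimmomatic 0.36, without settings. Strandedness and the handling of reads with several map positions are not stated there. Symbols came from Ensembl release 115 by gene identifier, and 216 older identifiers were named by their position (reciprocal overlap of 80% or more).

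Groups were taken from the sample titles. Counts were fitted with edgeR 4.0.16 in R 4.3.3 (filterByExpr, TMM, robust quasi-likelihood test) on all 9285 genes kept, and p-values were adjusted by Benjamini and Hochberg, with 0.05 as threshold. The fit was tested on simulated counts. Alternatives were other factors, other filters, DESeq2 1.42.0, limma-voom (limma 3.58.1), a replicate block, PGRP-SC1a and PGRP-SC1b summed, and leaving out each library. A length trend and a library term (the 3 libraries with fewest genes at 0) were added after seeing the data. Each library was counted as its own sample. Every pair of libraries differed beyond sampling noise, with a chi-square of 245.6 or more per degree of freedom. That does not show whether they came from separate flies.

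The members and lists were chosen with earlier results of these data known. The rule for named genes takes all members, x16, up to 4 genes of each list by mean CPM, and the 3 nearest profiles of each member, where 0.5 CPM was added before the logarithm. Outside it, AttD, DptB, Mtk, Rel, imd and pirk were named with their values seen. Limits of 3 counts cover counting error only.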

Additional observations from a re-analysis of the deposited data

How the results depend on the processing

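None of the 10 members passed under any alternative run, and the lowest adjusted p of any member was 0.373. The number of genes past the threshold, 11 in the main test, was 17 with total counts only, 50 with no low-count filter, 94 with DESeq2, 4 with limma-voom, 23 with the exonic length trend removed and 7 with the library term (medians of all genes were -0.326 with total counts only and -0.065 in the main test). Leaving out a 9G8-RNAi library (A, B or D) gave 2, 0 and 2, and leaving out a control in the same order 11, 5 and 4. In the fit with a replicate block 0 genes passed. Same-lettered libraries did not deviate together (correlations of -0.018, -0.347 and -0.46 for A, B and D). With 3 libraries per group these correlations cannot settle whether the letters are a pairing. Signs of small log2 fold changes turned for PGRP-SC1a with total counts only (0.052), limma-voom (0.344) and the block (0.215), for PGRP-SC2 with total counts only (-0.098), the length trend removed (-0.28) and the library term (-0.124), for PGRP-LE with total counts only (-0.154), for PGRP-LF with limma-voom (0.546), the block (0.534) and the library term (0.286), and for PGRP-SA with DESeq2 (0.009). Without single libraries the values ran from -0.568 to 0.795 for PGRP-SC1a, -0.367 to 0.479 for PGRP-SC2, -0.771 to 0.258 for PGRP-LC, -0.631 to 1.526 for PGRP-LF and -0.431 to 0.659 for PGRP-SA. Without length scaling 5 of the 10 members kept their rank of mean level. The cause of these changes was not tested. PGRP-SB1 and PGRP-LF, limited by few reads, did not pass the filter of over 1 CPM in 3 libraries and have no value there.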
